A study of Mus musculus with 9 samples.

Results

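The short isoform LIP was compared with the long isoform LAP of the transcription factor C/EBPβ, by RNA sequencing of fibroblasts that make either of them and no other form of the protein. The comparison was set by the labels and not by measured values: the 3 LIP libraries against the 3 LAP libraries, 6 of the 9 libraries in all. The cells were immortalised Cebpb-ko MEFs, which are mouse embryonic fibroblasts without C/EBPβ protein, of C57BL/6 x 129 background. They were stably transfected with rat LAP (CEBPB-LAP overexpression), with rat LIP (CEBPB-LIP overexpression) or with the empty vector (EV), under Zeocin. The 3 EV libraries are used only to say whether LIP, LAP or both had moved. All groups share the knockout and the drug selection, the expression is ectopic, and whether a group is a single clone or a pool is not given in the sources used here. The replicates carry the numbers 1 to 3, and no source says that they were separate cultures. The p-values therefore measure the spread between these libraries, shared in part across genes by the fit, and that spread may be technical.

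C/EBPβ is a basic leucine zipper factor that binds DNA as a dimer. Alternative start codons in its mRNA give LAP, which carries activation domains, and LIP, which lacks them but keeps the domains for DNA binding and dimerisation. In fibroblasts and other mesenchymal cells C/EBPβ is known for acute-phase and cytokine genes and for the start of adipocyte differentiation. The question here was which genes separate the cells with the short form from the cells with the long form.

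The C/EBP recognition sequence is a near-palindrome and was searched here as TTGCNNAA on both strands. The windows below show, in capitals, the match in the promoters of 4 of the most changed genes, with 3 that were lower in LIP than in LAP cells (Sfrp2, Dpt, Ms4a4d) and 1 that was higher (Pon3). They are RefSeq sequences on GRCm38.p6, each of 30 bases, 5′ to 3′ on the strand of the gene.
Sfrp2, chr3:83766265-83766294, + strand: cacctccagatTTGCATAAaaaaggccaag
Dpt, chr1:164796595-164796624, + strand: aaagcttttgcTTGAGCAAtgacacactgc
Ms4a4d, chr19:11536771-11536800, + strand: tttctcagctcTTTCGCAActtccagctgc
Pon3, chr6:5256230-5256259, - strand: cttcctgctttTTGCCTAAggcacccagac
The match begins at position -45 from the start site of the window in Sfrp2, -57 in Dpt, -12 in Ms4a4d and -15 in Pon3. For Sfrp2 and Pon3 that start site lies inside the annotated gene, at chr3:83765750-83774314 and chr6:5216256-5256285. A match of this kind was present in a promoter window, from 250 bases before to 50 after the start, of 16.2% of the 99 lower genes with a RefSeq promoter and of 22.2% of the 27 higher genes, against 10.8% of the 13945 tested genes with one. A gene with several windows was counted when any of them held a match. Among the genes called with the replicate block described below, the share was 12.7% of 632 lower and 9.73% of 226 higher promoters, so the higher share then lay below that of all tested genes. It is a description of letters and not of binding. The AP-1 motif TGANTCA was in 10.1% of the lower and 3.70% of the higher promoters, against 7.49% of tested genes, and TGATGCAA, the element shared by C/EBP and ATF factors, in 2.02% and 0.0%, against 0.817%. A TGATGCAA match is not a TTGCNNAA match on either strand.

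The libraries held between 24839139 and 33522082 counts on genes. Over 11535 well-counted genes (20 counts or more on average), Pearson's r of log2 CPM lay between 0.975 and 0.984 for pairs of LAP libraries and between 0.966 and 0.976 for pairs of LIP libraries, and genes are not independent replicates. CPM are counts scaled to a common library size with TMM factors, and 3 counts, the floor used here, stand for 0.0879 to 0.122 CPM in a single library, for counting error only. Fibroblast markers were high in all groups. Their summed level was 14527 to 28775 CPM in LIP, 24580 to 41315 CPM in LAP and 33338 to 38002 CPM in EV libraries. None of the 9 passed the test without the replicate block described below. With that block Dcn, Pdgfra and Pdgfrb of these markers were lower in LIP than in LAP cells. Markers of endothelial, blood, muscle and fat cells summed to 11.3 CPM at most per list and library, with Pecam1, Ptprc, Myod1 and Adipoq among those at 3 counts or fewer. Nerve and glia markers summed to 192 to 295 CPM, with Nes the highest at a mean of 105 CPM over LAP and LIP libraries. Epithelial markers, mainly Krt8, summed to 485 to 1004 CPM. Both lists had overlapping ranges in LAP and LIP cells. In such bulk samples fewer cells of a kind and less RNA per cell cannot be told apart. Reads on mouse Cebpb were 29.6 ± 3.90 CPM in LAP, 31.1 ± 2.59 CPM in LIP and 28.7 ± 2.97 CPM in EV cells (SD, n = 3 each), and since the plasmids carry the rat sequence these values do not check the labels.

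Among the genes that passed the test, ectopic expression of LIP went mainly with lower transcript levels than LAP. Over all 18166 genes tested the log2 fold change was below 0 in 8607, with a median of 0.02. In the quasi-likelihood test of edgeR, with p-values adjusted after Benjamini and Hochberg, 152 of the 18166 genes tested were lower in LIP than in LAP cells (0.837%) and 38 were higher (0.209%), with an adjusted p under 0.05. Of these 190 genes (1.05%), 180 had no overlap between the 3 LIP and the 3 LAP values, where 12.8% of all tested genes had none, and 185 differed by at least 2-fold. Libraries of the same number deviated together, so the same test was also run with the number as a block. This pairing was inferred from the same 6 libraries, and no source states it. It gave 871 lower (4.79%) and 312 higher genes (1.72%), among them all 190, each in the same direction. With total counts in place of TMM in that blocked test the split was 755 lower and 444 higher. The unblocked count depends on the fit, with 7 genes without LAP replicate 2, 2 with edgeR's filter on low counts and 10 with the test's current default form, whereas the blocked test gave 557 and 497 genes with these last 2 choices.

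Several of the genes with the largest differences that were lower in LIP cells code for secreted or surface proteins. Sfrp2, a secreted binder of Wnt proteins on chromosome 3, stood at 44.1, 30.8 and 16.5 CPM in LAP libraries 1 to 3, at 4.33, 1.47 and 0.743 CPM in LIP libraries and at 28.2, 20.3 and 27.4 CPM in EV libraries. Every LIP value lay below every LAP and EV value, and LAP overlapped EV. The log2 fold change of Sfrp2 was -3.80 ± 0.48 (SE, n = 3 and 3, adjusted p = 0.000771). Wisp2, a matricellular protein of the CCN family, had 46.1, 53.6 and 8.25 CPM in LAP, 3.35, 3.37 and 0.872 CPM in LIP and 26.6 to 38 CPM in EV cells. LAP replicate 3 was the lowest LAP library, and still above the LIP libraries. Its log2 fold change was -3.81 ± 0.54 (adjusted p = 0.00197 by edgeR).

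Cxcl5, a chemokine that attracts neutrophils, was at 222.8, 240.3 and 132.1 CPM in LAP and at 38.9, 17.0 and 10.8 CPM in LIP libraries, with 93.5 to 168.4 CPM in EV cells. The difference of -3.13 ± 0.37 on the log2 scale (adjusted p = 0.000373 by edgeR) was the second smallest p among the lower genes, after Glra2, and LIP but not LAP was past the threshold against EV. The same order, with LIP apart and EV overlapping LAP, held for Dpt (dermatopontin, a matrix protein, -3.21), Ms4a4d (a membrane-spanning protein, -3.39), Alpl (tissue-nonspecific alkaline phosphatase, -3.12), Mrgprf (an orphan receptor, -3.11) and Angpt1 (a ligand of the Tie2 receptor, -3.08), all log2 fold changes of LIP against LAP. Of these, Mrgprf (adjusted p = 0.00776) and Angpt1 (adjusted p = 0.0245) also passed edgeR's test in LIP against EV, and Dpt, Ms4a4d and Alpl did not. With the replicate block Dpt, Ms4a4d and Alpl passed it too (adjusted p = 0.00018, 0.000979 and 9.49e-05 by edgeR). Asb4, a subunit of a ubiquitin ligase, and Nlrp2, a NOD-like receptor, had EV values between the others. Asb4 was at 44.7 to 60.4 CPM in LAP, 32.6 to 38.4 CPM in EV and 1.61 to 12 CPM in LIP libraries, a difference of -3.21 ± 0.46 on the log2 scale between LIP and LAP.

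**Figure D1:**
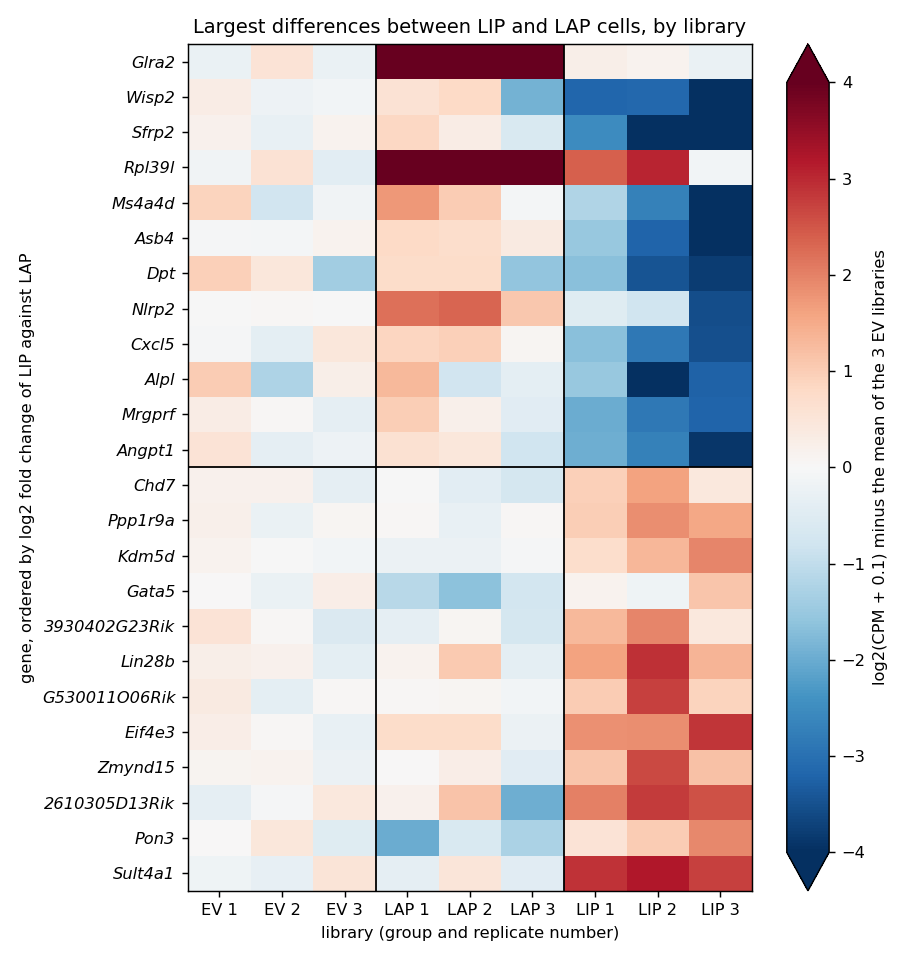
Heat map of the 12 lower and 12 higher genes with the largest log2 fold change between LIP and LAP cells (rows, past the threshold, mean of at least 50 counts, no overlap), with the 9 libraries as columns and the colour as log2(CPM + 0.1) minus the mean of the 3 EV libraries, on a scale cropped at 4 in both directions. Most lower genes are blue in LIP columns and near white in LAP columns, whereas Glra2 and Rpl39l are dark red in the LAP columns.

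A few genes separated the isoforms through LAP. Glra2, an X-linked gene for a subunit of the glycine receptor, had 272, 459 and 198 reads in LAP libraries, 1, 1 and 0 reads in LIP libraries and 0, 2 and 0 reads in EV libraries. LIP and EV were at the floor, so that LAP was at least 101-fold higher than LIP, computed against 3 counts per library. Rpl39l, a copy of the ribosomal protein gene Rpl39 with which it may share reads, was at 7.77, 23.6 and 6.55 CPM in LAP and at 1.02, 1.67 and 0.0969 CPM in LIP libraries. Its log2 fold change was -3.73 ± 0.60 in LIP against LAP, 6.67 in LAP against EV (adjusted p = 0.000102 by edgeR) and 2.91 in LIP against EV (adjusted p = 0.186). EV libraries held 3, 6 and 2 reads of Rpl39l and LIP replicate 3 held 3, near the floor, so the size of these folds is uncertain. Alx4, a homeodomain factor of limb and skull patterning, was at 13.3, 9.88 and 5.96 CPM in LAP, 3.43, 2.16 and 0.549 CPM in LIP and 1.44 to 1.68 CPM in EV libraries. LIP values of Alx4 lay on both sides of EV. Glra2, Rpl39l, Alx4 and Nlrp2 were among the 5 lower genes for which LAP passed the test against EV as the higher group.

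**Figure D2:**
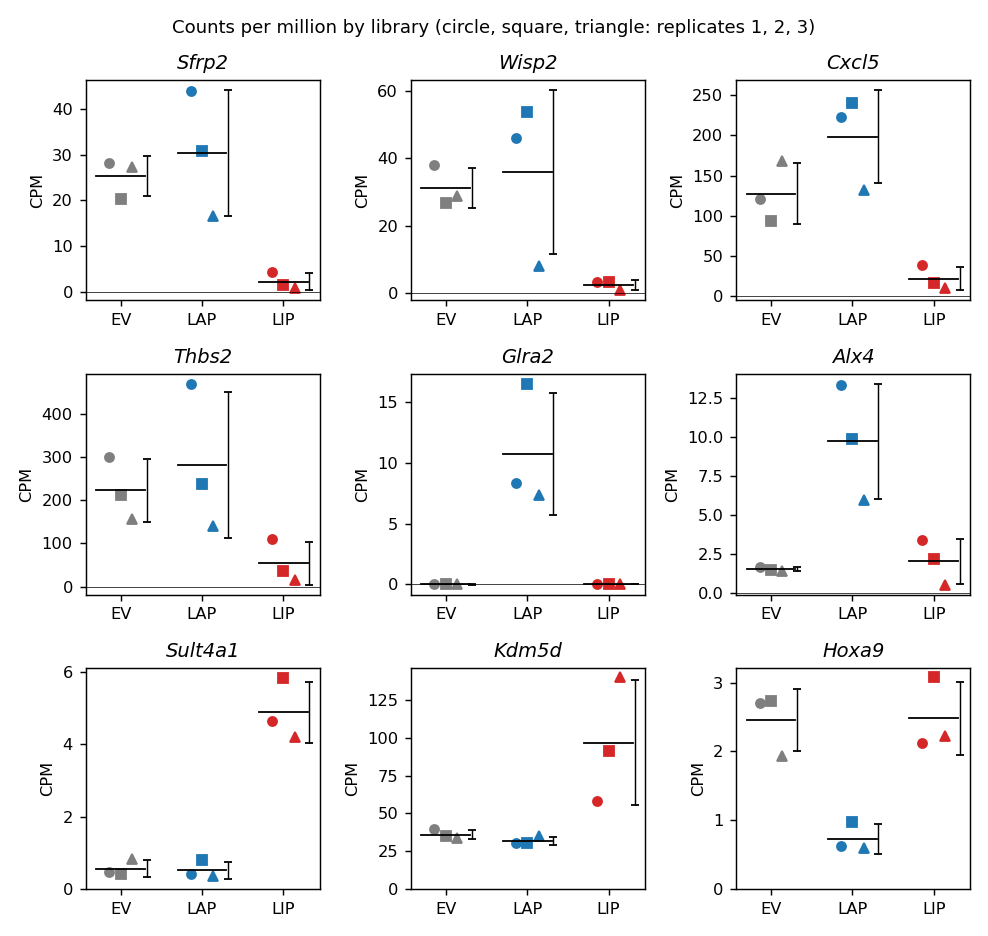
CPM of 9 genes in each of the 9 libraries (points, with circle, square and triangle for replicates 1, 2 and 3), grouped as EV, LAP and LIP, with the mean as a line and the SD as a bar beside it. LIP stands apart for Sfrp2, Wisp2, Cxcl5, Sult4a1 and Kdm5d, and LAP for Glra2, Alx4 and Hoxa9.

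Placed by the EV libraries, the LIP values were more often the ones apart. The values of LIP and EV did not overlap in 15.6% of all tested genes and those of LAP and EV in 7.57%, and among the 2327 genes without overlap of LIP and LAP, 1185 had LIP apart with EV overlapping LAP and 304 had LAP apart with EV overlapping LIP. Of the 152 lower genes, 108 had LIP values apart from both other groups with EV overlapping LAP, 9 had LAP apart with EV overlapping LIP, and 12 had EV between them. The others were 12 genes in which EV overlapped both, 10 with overlap of LIP and LAP, and Gpnmb, in which EV lay beyond LAP. Of the 38 higher genes, 30 had LIP apart and 3 had LAP apart, which were Hoxa9, Hoxa10 and Gata5. EV lay between in Pon3 and Ccdc88c, beyond LAP in Crmp1, and overlapped both in the remaining 2. By the test against EV, for which the background was 0.33% of genes lower in LIP and 0.0275% higher in LAP, 36 of the 152 were lower in LIP, 5 were higher in LAP, and 111 passed neither test. Among the 38, 9 were higher in LIP (0.0659% of all genes) and 29 passed neither. Same-numbered LAP and EV libraries also deviated together. With the number as a block, where 0.132% of genes were higher and 0.165% lower in LAP than in EV cells, 10 of the 152 were higher in LAP and 2 were lower, which were Gpnmb (-0.85) and Col8a2 (-0.71), and 2 of the 38 were lower in LAP, Hoxa9 and Gata5. Besides the genes above, those higher in LAP included Avpr1a, Dsg2, Fap and Gabra3, with blocked log2 fold changes of 0.80 to 1.59. A gene that passed neither can have moved by too little for 3 libraries a group. With the block 2.21% of all genes were lower and 0.357% higher in LIP than in EV cells. Blocked counts within the 152 and the 38 are not given for LIP, so they do not compare both isoforms.

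The medians are given as a description, and the comparisons against EV share the EV libraries. Over the 152 lower genes the median log2 fold change was -2.13 in LIP against LAP, -1.67 in LIP against EV and 0.34 in LAP against EV, where all tested genes had medians of 0.02, 0.05 and 0.03. LIP was farther from EV than LAP in 133 of the 152. Over the 38 higher genes the medians were 1.60, 1.14 and -0.23, with LIP farther from EV in 34.

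**Figure D3:**
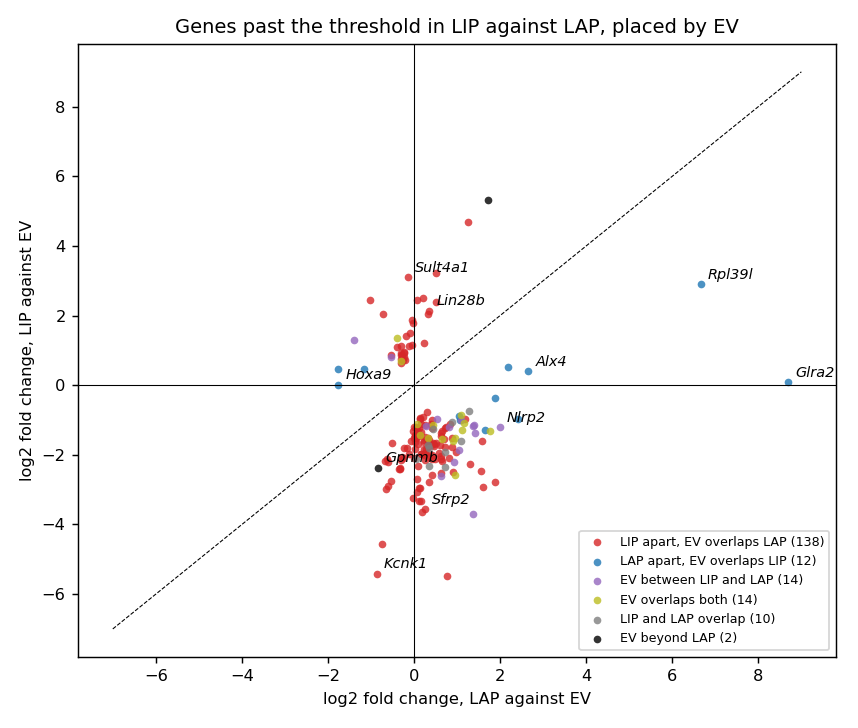
Log2 fold change of LIP against EV (vertical axis) and of LAP against EV (horizontal axis) for the 190 genes past the threshold in LIP against LAP, coloured by where the EV values lie, with equality as a dashed line. Of the genes, 138 have LIP apart and 12 have LAP apart, and the points lie in a vertical band near 0 on the LAP axis, with Glra2 and Rpl39l far to the right. Both axes use the same EV libraries.

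The genes higher in LIP cells were fewer. Sult4a1, a sulfotransferase-like protein known from neurons, was at 4.65, 5.83 and 4.20 CPM in LIP, at 0.401, 0.790 and 0.370 CPM in LAP and at 0.406 to 0.820 CPM in EV libraries. LAP and EV overlapped, and LIP was 9.53-fold above LAP by the fit (log2 fold change 3.25 ± 0.38, adjusted p = 0.000373 by edgeR). Kdm5d, a histone H3 lysine demethylase gene on chromosome Y, was at 58.4, 91.2 and 140.7 CPM in LIP and at 30.3 to 35.0 CPM in LAP libraries, with 33.5 to 39.4 CPM in EV. The log2 fold change was 1.62 ± 0.27 (adjusted p = 0.00625 by edgeR), and reads shared with its X-linked relative Kdm5c make the value uncertain. Eif4e3, a cap-binding protein of the eIF4E family, was at 2.69, 2.72 and 5.52 CPM in LIP, 0.555 to 1.20 CPM in LAP and 0.527 to 0.840 CPM in EV cells. Ppp1r9a (neurabin, an actin-binding scaffold, 1.59), Zmynd15 (a zinc finger protein, 1.92) and Chd7 (a chromatin remodeller, 1.48) also had LIP apart.

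Pon3, a lactonase of the paraoxonase family, was at 2.04, 2.88 and 5.46 CPM in LIP, 0.967 to 1.92 CPM in EV and 0.277 to 0.862 CPM in LAP cells. The 3 groups did not overlap, and LIP was above LAP by 2.68 ± 0.45 on the log2 scale (adjusted p = 0.00702 by edgeR). Gata5, a GATA factor of endoderm and heart, was instead at 1.58 to 3.07 CPM in LAP, against 4.59 to 11.3 CPM in LIP and 4.32 to 6.24 CPM in EV cells, and LAP against EV passed with the block (-1.20, adjusted p = 0.00765 by edgeR). Of the transcripts without a described role, 2610305D13Rik (2.31) and 3930402G23Rik (1.77) were higher in LIP, and G530011O06Rik (1.82) has copies on X and Y, so that its count is uncertain. Lin28b, which codes for a blocker of let-7 maturation, was at 13.2, 33.3 and 11.2 CPM in LIP and 4.75, 8.91 and 3.22 CPM in LAP libraries, a log2 fold change of 1.8 ± 0.39 (adjusted p = 0.0327 by edgeR). EV libraries had 3.22 to 5.07 CPM of Lin28b and overlapped LAP, and LIP passed edgeR's test against EV (adjusted p = 0.0379).

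Lin28b mRNA is itself a known let-7 target, and the sequences are shown because this gene separated the isoforms. The mature RefSeq let-7a with its seed, bases 2 to 8, in capitals, and the first seed match in the 3′ UTR of Lin28b, on the minus strand of GRCm38 at chr10:45381022-45381043, are given 5′ to 3′ with the paired bases in capitals.
mmu-let-7a-5p: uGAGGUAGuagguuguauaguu
Lin28b site: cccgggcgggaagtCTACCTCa
The annotated UTR of 4445 bases held 4 such matches, which begin 36, 2410, 2582 and 3998 bases after the stop codon. Of 25 tested genes of the Lin28 and let-7 target list, Lin28b alone passed the test, and with the block Mycn (0.67) and Arid3b (0.94) were higher too, while Igf2bp3 (-1.12) and Trim71 (-1.14) were lower (log2 fold changes of the blocked fit). The 8 tested let-7 loci, which are the miRNA genes themselves and not their host transcripts, had few reads and none passed with either fit. Mature let-7 was not measured in these libraries.

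The lists of matrix genes and those that follow are described by their counts. These are to be read beside 0.837% of all genes lower and 0.209% higher without the block. With the block the shares of all genes were 4.79% lower and 1.72% higher. Of 19 tested elastic fibre genes, 4 were lower and none higher, with a list median of -0.95, and with the block 13 were lower and 1 higher. The 4 were Mfap5 (a microfibril protein, -3.47), Mfap4 (-2.48), Emilin2 (-1.93) and Efemp1 (fibulin-3, -1.32). Efemp1 was at 600.7, 419.2 and 464.8 CPM in LAP, 266.1, 110.2 and 213.7 CPM in LIP and 440.9 to 470.3 CPM in EV libraries. Of 22 matricellular genes 3 were lower, with 12 lower under the block and a median of -0.85. Besides Wisp2 these were Thbs2 (thrombospondin 2, -2.38) and Postn (periostin, -2.06), of which Thbs2 was at 469.9, 238.9 and 139.9 CPM in LAP and 109.4, 35.3 and 16.1 CPM in LIP libraries. In each number the LIP value of Thbs2 was the lower of the pair, and library 1 was the highest in both groups. EV libraries had 156.6 to 300.9 CPM of Thbs2 and overlapped LAP, and LIP lay below EV without passing the unblocked test.

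Of 11 laminin chains 3 were lower with either fit, Lama2 (-2.45), Lama4 (-2.66) and Lamb3 (-2.29), and of 43 collagen chains 2 were, Col8a2 (-1.50) and Col10a1 (-2.10). The fold of Lama4 depends on library 1, with -4.18 without LIP replicate 1 and -1.72 without LAP replicate 1, where it no longer passed (adjusted p = 0.0532 by edgeR). The collagen count became 13 lower and none higher with the block, and the median of all 43 was -0.23. The collagens with the smallest blocked p outside the first 2 were Col12a1 (-1.51 ± 0.18) and Col6a3 (-1.80 ± 0.22), chosen after their values were seen like the other genes named here from the blocked fit alone. Col12a1 was at 923.8, 359.0 and 294.6 CPM in LAP libraries 1 to 3 and at 326.4, 92.8 and 134.7 CPM in LIP libraries. The groups overlap, and each LIP library was lower than the LAP library of its number. None of 12 small leucine-rich proteoglycans passed without the block, with 7 lower under it and a median of -1.08, Ogn (-1.24), Fmod (-1.24) and Dcn (decorin, -1.11) among them. Ogn and Fmod were not lower in every pair, since the third LIP library was above the third LAP library by 0.036 and 0.39 on the log2(CPM + 0.1) scale. The matrix lists overlap with the fibroblast markers, whose lower sum in LIP libraries is given above, and the part of that sum in these differences was not tested.

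Among the receptors for this matrix, 2 of 23 integrins were lower, Itga7 (a laminin receptor subunit, -1.59) and Itga9 (-2.20), and 7 were lower and 1 higher with the block. Itga7 was at 46.8 to 58.1 CPM in LAP, 5.01 to 24.0 CPM in LIP and 38.5 to 100.9 CPM in EV cells. Of 50 matrix proteases and inhibitors Adamts20 (-2.13) was lower, with 13 lower and 1 higher under the block, where Adamtsl3 (-1.47), Mmp9 (-2.02) and Mmp3 (-1.70) led. The EV mean lay nearer to LIP for Mmp9 (1.79 CPM in EV, 1.92 in LIP, 6.48 in LAP) and Mmp3 (4.38, 3.37 and 10.6 CPM). For Adamtsl3 it lay nearer to LAP (57.0, 18.5 and 46.7 CPM). Neither isoform passed the unblocked test against EV for any of these genes. Of 33 cadherins Pcdh1 (-2.07) was lower, with LAP apart from LIP and EV.

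**Figure D4:**
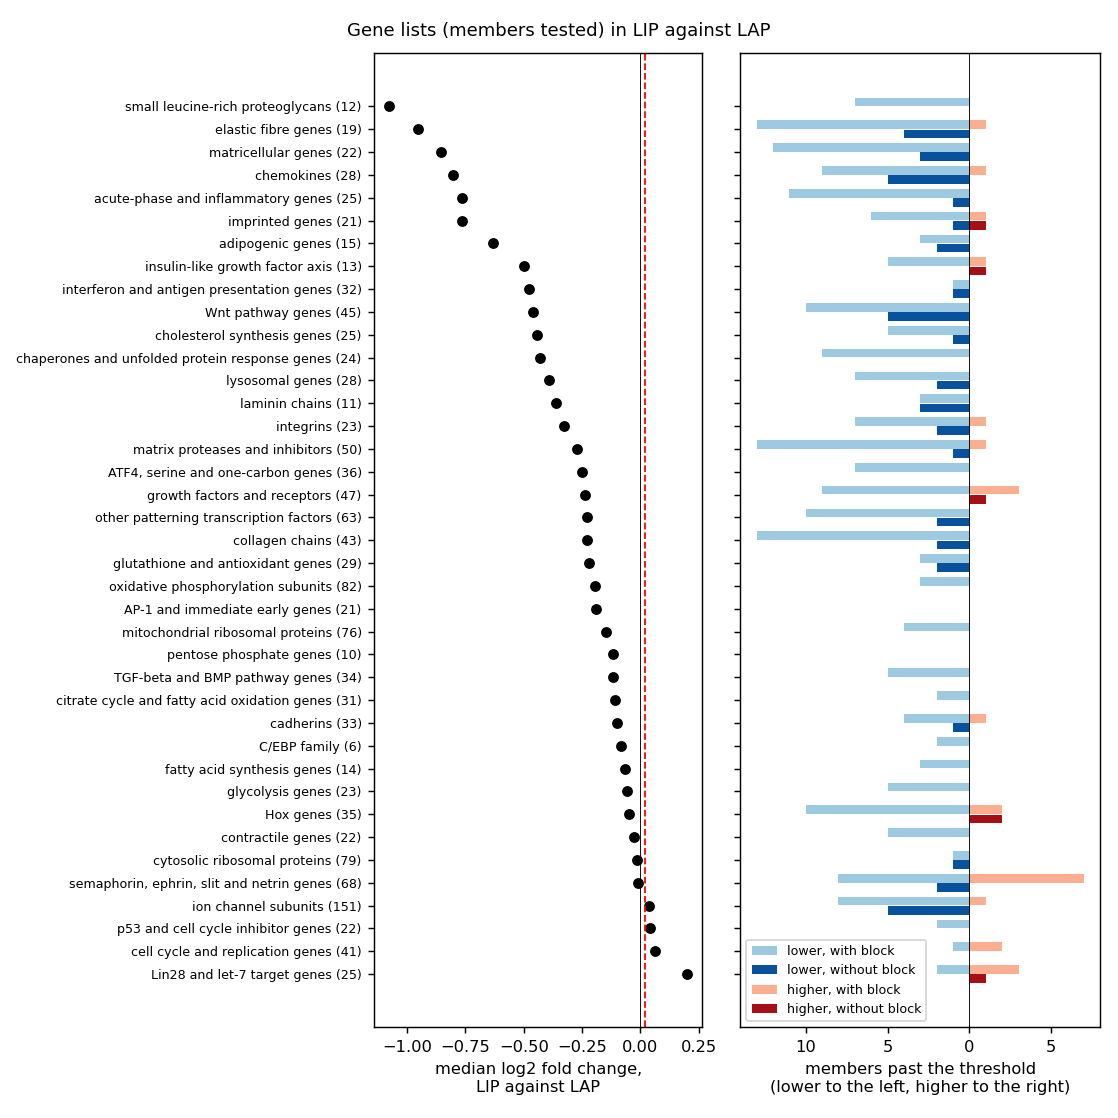
Median log2 fold change of LIP against LAP for 39 gene lists (left, points, with the median of all tested genes as a dashed line) and the number of members past the threshold (right, lower to the left and higher to the right, dark bars without and pale bars with the replicate block), with the number of tested members in brackets and the let-7 loci left out. Proteoglycan, elastic fibre, matricellular, chemokine, acute-phase and imprinted lists stand at the top with medians of -1.08 to -0.76, and the glycolysis, cytosolic ribosomal and cell cycle lists lie near 0.

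Of 28 tested chemokine genes 5 were lower and none higher, beside 0.837% of all genes lower, and 9 were lower and 1 higher with the block, at a median of -0.80. Cxcl1, a neutrophil chemokine, was at 361.3, 513.3 and 214.9 CPM in LAP, 127.4, 89.0 and 35.0 CPM in LIP and 262.3 to 290.7 CPM in EV libraries. All LIP values lay below the others, and EV lay within the range of LAP. Ccl11, an eosinophil chemokine, and Cxcl14 had at most 1.54 CPM in any library. LIP libraries held 4, 3 and 3 reads of Ccl11 and 4, 2 and 1 reads of Cxcl14, which is near the floor, so no fold is given here. Ccl7 was the fifth, and Ccl2 (-1.36) and Cxcl10 (-1.73) joined with the block. The LIP-against-EV median of the list was -0.54 and the LAP-against-EV median 0.42.

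Acute-phase genes, a textbook group of C/EBPβ targets, counted 1 lower member of 25, Ptx3 (pentraxin 3, -1.59), and 11 lower and none higher with the block, with Il1rl1 (-1.88), Steap4 (-1.72) and C3 (-1.25) at the smallest blocked p. Ptx3 was at 123.6 to 241.1 CPM in LAP, 29.3 to 95.9 CPM in LIP and 94.6 to 168.8 CPM in EV cells. EV overlapped both, and neither isoform passed the unblocked test against EV. Of 32 interferon and antigen presentation genes Gbp2 was lower with either fit (-1.48), and the list median of -0.48 stood beside -1.0 in LIP against EV. Of 28 lysosomal genes Gpnmb (-1.53) and the protease gene Ctsk (-2.13) were lower, and 7 with the block. Gpnmb differed from most genes in the position of EV, with 19 to 28.2 CPM in EV, 9.54 to 16.6 CPM in LAP and 3.42 to 5.18 CPM in LIP cells.

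Wnt pathway genes gave 5 lower members of 45, of which Sfrp1 (-1.99), Sfrp2 and Sfrp4 (-1.16) code for secreted antagonists, Rspo2 (-2.98) for an enhancer of Wnt signalling and Wnt6 for a ligand with 0 reads in all LIP libraries. None was higher, and the block gave 10 lower, among them the secreted protein Dkk3 (-2.09). Sfrp4 was at 23.8 to 25.8 CPM in LAP, 8.81 to 15.2 CPM in LIP and 15.1 to 31.3 CPM in EV cells. Of 47 growth factors and receptors Tgfa, a ligand of the EGF receptor, was higher in LIP (1.19), at 34.3 to 65.6 CPM against 18.3 to 22.4 CPM in LAP and 15.6 to 29.9 CPM in EV cells. With the block 9 were lower, such as Fgf7 (-1.45) and the PDGF receptors Pdgfra (-1.22) and Pdgfrb (-1.75), and 3 were higher. In the insulin-like growth factor axis Irs2, an adaptor of the insulin receptor, was higher (0.96) at 72.3 to 93.6 CPM in LIP and 34.8 to 49.5 CPM in LAP cells. EV cells had 49.2 to 54.9 CPM of Irs2 and overlapped LAP. With the block 5 binding protein genes were lower, Igfbp5 (-2.18) and Igfbp2 (-2.22) with the smallest p. For both, LIP was lower in pairs 1 and 2 and higher in pair 3, by 0.22 for Igfbp5 and 0.69 for Igfbp2 on the log2(CPM + 0.1) scale.

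Hox genes went in both directions. Hoxa9 was at 0.617, 0.970 and 0.592 CPM in LAP, 2.12, 3.08 and 2.23 CPM in LIP and 1.93 to 2.73 CPM in EV libraries, so that LAP was the group apart. The difference was 1.79 ± 0.37 on the log2 scale (adjusted p = 0.026 by edgeR), and Hoxa10 had the same order at lower levels (2.25 ± 0.53). LAP against EV did not pass the test for Hoxa9 without the block (-1.77, adjusted p = 0.0542 by edgeR) and passed it with the block (-1.78, adjusted p = 0.00149 by edgeR). With the block these 2 of 35 Hox genes stayed higher and 10 genes of the B, C and D clusters were lower, including Hoxc8 (-1.44), Hoxc6 (-1.32) and Hoxc9 (-1.55). Of 63 other patterning factors Alx4 and the limb mesenchyme factor Prrx1 (-1.09) were lower, and 10 with the block, none of them higher. Prrx1 was at 23.3 to 36.9 CPM in LAP, 11.1 to 18.1 CPM in LIP and 25.4 to 28.5 CPM in EV libraries.

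Of 151 ion channel subunits 5 were lower (3.31%, beside 0.837% of all genes), at a list median of 0.04. With the block 8 were lower and 1 higher, where 4.79% of all genes were lower and 1.72% higher. Besides Glra2, the 5 included the potassium channel Kcnk1, the GABA receptor subunit Gabra3 (-2.23) and the sodium channel Scn4a. Kcnk1 ranged from 0.185 to 4.22 CPM in LAP and from 0.703 to 7.15 CPM in EV libraries, and was near the floor in LIP libraries, with 2, 4 and 3 reads. Of 68 semaphorin, ephrin, slit and netrin genes Epha3 (-2.47) and Sema6a (-2.25) were lower, and the block gave 8 lower and 7 higher, with Epha4 (1.01) and Slit1 among the latter. Of 21 imprinted genes Dio3, which inactivates thyroid hormone, was lower, with 5, 3 and 0 reads in LIP libraries. Peg3 was higher (0.94), at 129.1 to 169.2 CPM in LIP, 70.8 to 96.8 CPM in LAP and 66.1 to 109.4 CPM in EV cells. The block added lower values for Ndn (-2.01), H19 (-2.37) and Rian (-1.10).

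Of the genes of fat and sterol metabolism, Lpl (lipoprotein lipase, -2.39) and Ebf2 (-1.86) of 15 adipogenic genes were lower, with Lpl at 58.1, 42.1 and 19.98 CPM in LAP and 16.0, 5.24 and 1.42 CPM in LIP libraries. All 3 LIP values lay below the LAP values and below EV (18.7 to 24.0 CPM), which overlapped LAP. LIP did not pass the unblocked test against EV for Lpl. Of 25 cholesterol synthesis genes 1 was lower, and 5 with the block, with Sqle (-0.79) among them. Of 29 antioxidant genes Gpx7 (-2.51) and Nqo1 (-1.64) were lower.

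Of 23 glycolysis genes none passed without the block, where edgeR's smallest adjusted p was 0.119 (Ldhb, -1.17), 5 were lower with the block, and the median was -0.06. The 10 pentose phosphate genes gave none with either fit, with a smallest blocked p of 0.117 for H6pd. Of 82 oxidative phosphorylation subunits none passed without the block, 3 were lower with it and the median was -0.19, beside 0.08 in LIP against EV and 0.35 in LAP against EV. Of 76 mitochondrial ribosomal protein genes 4 were lower with the block, and of 79 cytosolic ones Rpl39l alone passed with either fit. ATF4 and one-carbon genes (7 of 36), chaperones (9 of 24) and fatty acid synthesis genes (3 of 14) were lower with the block, beside 4.79% of all genes, and of 41 cell cycle genes Ccne1 was lower while Mybl2 and E2f2 were higher with it. TGF-beta and BMP pathway genes counted 5 lower of 34 with the block, Tgfbr3 (-1.12) first, p53 and cell cycle inhibitor genes 2 of 22 and citrate cycle and fatty acid oxidation genes 2 of 31. The 21 AP-1 and immediate early genes gave none. A p above the threshold with 3 libraries a group does not show equal levels.

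Contractile genes show what the block changes. None of 22 passed without it and 5 were lower with it, Cnn1 (calponin, -2.22 ± 0.22) and Myl9 (a myosin light chain, -2.04 ± 0.20) first. Myl9 was at 233.2, 147.6 and 73.1 CPM in LAP libraries 1 to 3 and at 113.5, 30.6 and 9.85 CPM in LIP libraries 1 to 3. In both groups number 1 was the highest and number 3 the lowest, and within each number LIP was below LAP. Tnc (tenascin C, -2.19 ± 0.23) ran in the same way, from 1508.5 to 397.5 CPM in LAP and from 756.3 to 30.5 CPM in LIP cells. For the C/EBP family itself, 2 of 6 tested genes were lower with the block, Cebpd (-0.84) and Ddit3 (-0.64), and none without it.

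**Figure D5:**
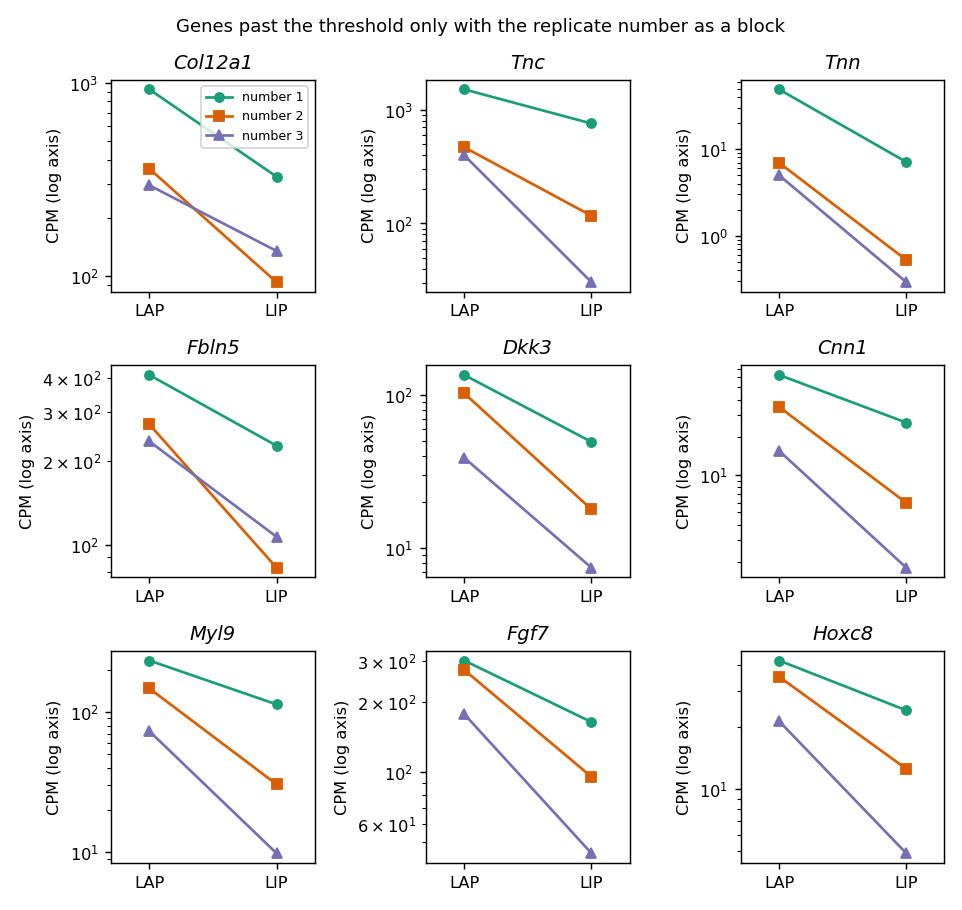
CPM (log axis) in the LAP and the LIP library of each replicate number, joined by lines, for 9 genes that passed the threshold only with the replicate number as a block. Within each number the LIP value is below the LAP value, although the groups overlap for most of these genes.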

How the data were processed

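RNA of 9 libraries, 3 each of LAP, LIP and EV, was sequenced as single-end reads from a kit that does not mark strand, so reads of overlapping or antisense genes cannot be told apart. The authors aligned reads with TopHat 1.4.1 to a genome named GRCh38/mm10 with RefSeq genes, counted them with HTSeq 0.5.4 and deposited raw counts for 23337 symbols, without normalization. The sources used here do not give the handling of multiply aligned reads, so counts of near-identical genes are uncertain. Columns were matched to groups by title, and 0 were left unused. Library totals were 24839139 to 33522082 counts, which limits precision for low genes.

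Genes with at least 1 count in the 6 libraries were scaled by TMM and tested in edgeR 4.0.16 (R 4.3.3), by the quasi-likelihood test without covariates and with Benjamini-Hochberg adjustment at 0.05. Each standard error was taken as log2 fold change over the root of F. The fit shares dispersion in part across genes, so a standard error is not the spread of that gene's libraries alone. Exact permutation of 3 against 3 libraries cannot give a two-sided p below 0.1, and is therefore not quoted by gene. Titles number the libraries 1 to 3 in each group. Deviations from group means of same-numbered LIP and LAP libraries correlated at 0.558, 0.413 and 0.466 across 11535 genes, and those of other numbers at -0.145 to -0.319. Deviations within a group cancel out, so negative values for other numbers follow from the positive ones and are no separate evidence. The number was taken as a pairing from these same libraries, without a source for it, and blocked values are given. For LAP and EV the same-number values were 0.524, 0.210 and 0.511, also taken as a pairing. Adjusted p and log2 fold changes are unblocked unless stated.

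Members and gene lists were chosen with earlier results of these data known. Named are the 12 lower and 12 higher genes with the largest log2 fold change, among genes past the threshold that average 50 counts or more and do not overlap between groups, up to 4 members past the threshold per list by smallest p, Lin28b and Cebpb. Some genes that these rules name are not reported here. From the blocked test, up to 3 genes per list were chosen by smallest p after their values were seen, as were Pdgfra, Pdgfrb, Trim71 and Slit1. Promoter, miRNA and gene positions are from RefSeq on GRCm38.p6, and the Lin28b UTR is from GENCODE on GRCm38. The steps were tested on simulated data. As alternatives, DESeq2 1.42.0, edgeR's exact test, other scalings, filters and forms of the test, a joint model of all 9 libraries, the replicate block and the omission of each library were tried. The replicate block joined with filterByExpr, with legacy=FALSE or with total counts was added after seeing the data. Python 3.11.15 and matplotlib 3.10.9 were used for tables and figures.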

Additional observations from a re-analysis of the deposited data

Results flagged for a closer look

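In some genes every LIP library lay on one side of the EV libraries and every LAP library on the other. These were 12 of the 152 lower and 2 of the 38 higher genes, beside 63 of the 18166 tested genes (0.347%). Dsg2, named above, belongs to them, and Asb4, Cxcl14, Nlrp2, Pon3 and Ccdc88c are described here. The difference between these effects is the LIP against LAP comparison itself, which passed edgeR's quasi-likelihood test for each of them. Asb4 (log2 fold change of LIP against LAP -3.21), Cxcl14 (-3.14) and Nlrp2 (-3.19) had LAP above and LIP below EV, and Pon3 (2.68) and Ccdc88c (1.34) had LIP above and LAP below EV. Against EV, LAP passed the unblocked test for Nlrp2 (1.99, adjusted p = 0.0146) and neither isoform passed it for Asb4, Cxcl14, Pon3 or Ccdc88c. With the block LIP passed against EV for Asb4 (adjusted p = 0.000624 by edgeR) and not for Cxcl14 or Pon3. Cxcl14 had at most 0.925 CPM in any library, and its fold rests on 4, 2 and 1 reads in LIP libraries.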

How the results depend on the processing

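Beside 190 genes in LIP against LAP, the count was 255 with DESeq2, 242 with the edgeR exact test, 188 with DESeq2's size factors and 197 with all 9 libraries in a single model. It fell to 113 with total counts only, 55 with robust=TRUE, 10 with legacy=FALSE, 2 with filterByExpr (Glra2 and Sult4a1) and 0 with at least 10 counts in every library, where the quasi-likelihood test of edgeR gave 675 lower and 406 higher genes at an unadjusted p under 0.05. Leaving out a library gave 7 to 448 genes, with 7 without LAP replicate 2, 94 without LIP replicate 2, 147 without LIP replicate 1 or without LAP replicate 1, 408 without LAP replicate 3 and 448 without LIP replicate 3. With the replicate block, where same-numbered libraries are paired, there were 1183 genes, and the block gave 557 together with filterByExpr, 497 together with legacy=FALSE and 1199 together with total counts only. All 190 genes stayed past the threshold with the block, as did all 179 of them that filterByExpr kept and 189 with legacy=FALSE. The cause of the differences between fits was not tested.

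The count in LIP against EV was 72, with 4 under filterByExpr, 88 with all 9 libraries and 467 with the replicate block. Deviations of same-numbered LIP and EV libraries correlated at 0.290, -0.121 and 0.231, and those of other numbers at -0.382 to 0.207. Numbers 1 and 3 lay above all other pairs and number 2 did not, so a pairing of LIP with EV is unclear. The count in LAP against EV was 11, with 3 under filterByExpr, 3 with all 9 libraries and 54 with the replicate block. All 67 named genes past the threshold kept the direction of their log2 fold change in every fit. This was largely fixed in advance, since they were picked from the same libraries, nearly all without overlap of LIP and LAP values. Of the 67, 6 stayed past the threshold without any 1 library (Glra2, Cxcl5, Sult4a1, Sfrp2, Mrgprf and Mfap5). The fold of 29 of the 67 moved by over 1.5 times without some library, 23 without LIP replicate 1, 8 without LAP replicate 1, 4 without LIP replicate 2, 2 without LAP replicate 2 and 1 without LIP replicate 3, among them Lama4, Ctsk, Lin28b, Rpl39l and Postn. Cebpb, which was not past the threshold, changed sign, from 0.19 at most to -0.030 without LAP replicate 2. Genes near the floor of 0.0879 to 0.122 CPM are limited by depth.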
